A study of Rattus norvegicus with 40 samples.

Results

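The endoplasmic reticulum (ER) chaperones and ER degradation factors considered here are 10 named genes, measured in INS-1E cells: Hspa5, Hsp90b1, Hyou1, Sdf2l1, Dnajb9, Pdia4, Pdia6, Derl3, Herpud1 and Xbp1. They were chosen by name, as rows of the deposited table whose platform gene symbol is one of the 10. Of the 16587 gene symbols in the table, 9 were members, each measured by 1 probe set named by its NCBI gene number (25617 for Hspa5, 362862 for Hsp90b1, 192235 for Hyou1, 680945 for Sdf2l1, 24908 for Dnajb9, 116598 for Pdia4, 690315 for Derl3, 85430 for Herpud1 and 289754 for Xbp1), and Pdia6 was not analysed here.

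INS-1E, labelled INS1 in the samples, is an insulin-secreting line that derives from a rat insulinoma. Cells received human recombinant IL-1 at 10 units/ml together with murine recombinant IFN-γ at 100 units/ml, giving 25 arrays, or were kept in medium without cytokines, giving 15 arrays, and total RNA was hybridised to Affymetrix Rat ST arrays at 0, 1, 2, 4, 6, 8, 10, 12, 24, 36, 48, 60 and 72 h. The cytokine group had 2 arrays at 12 times and 1 at 10 h, and the control group had 2 arrays at 0 and 1 h and 1 array at each of the other 11 times. The experiments were run on 2 occasions, which the labels do not tie to a replicate number. The titles, treatment text and design name IL-1 and IFN-γ, whereas the treatment characteristic of the cytokine arrays names IFN-beta in place of IL-1. Islets are named in the extraction text, while the samples carry the label of the line. One cell line limits the experiment as a model of beta cells.

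The ER lumen is where insulin and other secreted proteins fold. BiP, encoded by Hspa5, and the other lumenal chaperones bind unfolded chains, oxidoreductases such as PDIA4 form and rearrange their disulfide bonds, and proteins that fail to fold are pulled back to the cytosol and degraded. When unfolded proteins build up, sensors in the ER membrane start the unfolded protein response, in which IRE1 splices the Xbp1 message, ATF6 is cut to release a transcription factor, and PERK slows translation and favours ATF4 and CHOP (Ddit3). ATF6 and spliced XBP1 are known to raise chaperone and degradation genes through short promoter elements. Beta cells secrete large amounts of protein and depend on this machinery, and inflammatory cytokines stand in for immune attack on them in culture.

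Promoter elements of the unfolded protein response are shown first, to tell which of the genes hold one near their start. The 250 bases before the start site of all 9 measured genes were read from the RefSeq promoter table of rat build GRCr8 and searched on both strands for 3 motifs. These were the ER stress response element ERSE (CCAAT, then 9 bases of any kind, then CCACG), ERSE-II (ATTGG, 1 base of any kind, CCACG) and the core of an unfolded protein response element, UPRE (TGACGTGG). ERSE was present in 0.0657% of all 33469 promoter windows of that length, ERSE-II in 0.0418% and UPRE in 0.52%. Among the 9 genes, 4 held ERSE, 2 held ERSE-II and 1 held UPRE, the last overlapping one of the ERSE-II matches of Hyou1. Together 6 of 9 genes held at least 1 of the motifs, and Sdf2l1, Dnajb9 and Pdia4 held none in this window. Such elements were first described in several of these very genes, so the matches are a description of the chosen genes and no independent finding. A match is not evidence of a bound site. The ERSE and ERSE-II matches are given below in the orientation of the motif, with the fixed bases in capitals and the free bases in lower case. Positions are counted from the start site, -1 being the base before it. Counted so, the UPRE match of Hyou1 lies at -191 to -184.
Hspa5, ERSE, at -43 to -25: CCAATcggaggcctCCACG
Hsp90b1, ERSE, at -176 to -158: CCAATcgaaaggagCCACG
Hsp90b1, ERSE on the opposite strand, at -72 to -54: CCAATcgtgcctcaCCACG
Derl3, ERSE on the opposite strand, at -154 to -136: CCAATaaggaagtcCCACG
Xbp1, ERSE, at -65 to -47: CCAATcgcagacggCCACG
Herpud1, ERSE-II, at -124 to -114: ATTGGgCCACG
Hyou1, ERSE-II on the opposite strand, at -188 to -178: ATTGGcCCACG
Hyou1, ERSE-II on the opposite strand, at -88 to -78: ATTGGgCCACG

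The whole windows are given for 4 genes that were lower late in cytokine cells, 3 with a match and Sdf2l1 without one, so that the setting of the matches can be read. Each runs 5′ to 3′ on the strand of the gene and ends at the base before the start site, with ERSE, ERSE-II and UPRE matches in capitals. The windows lie at chr3:38452766-38453015 on the plus strand (Hspa5), chr7:23012294-23012543 on the minus strand (Hsp90b1), chr8:53602632-53602881 on the plus strand (Hyou1, the first of its windows) and chr11:97376628-97376877 on the plus strand (Sdf2l1), in GRCr8.
Hspa5: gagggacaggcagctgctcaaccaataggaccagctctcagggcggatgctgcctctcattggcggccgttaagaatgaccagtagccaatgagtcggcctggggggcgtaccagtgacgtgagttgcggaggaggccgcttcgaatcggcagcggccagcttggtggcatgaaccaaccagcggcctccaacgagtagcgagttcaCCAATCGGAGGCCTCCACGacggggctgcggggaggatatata
Hsp90b1: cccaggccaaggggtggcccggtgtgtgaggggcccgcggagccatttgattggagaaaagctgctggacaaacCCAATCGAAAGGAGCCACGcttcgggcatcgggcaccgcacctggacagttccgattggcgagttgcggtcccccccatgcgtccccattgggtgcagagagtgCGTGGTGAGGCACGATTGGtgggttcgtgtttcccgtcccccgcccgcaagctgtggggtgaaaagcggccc
Hyou1: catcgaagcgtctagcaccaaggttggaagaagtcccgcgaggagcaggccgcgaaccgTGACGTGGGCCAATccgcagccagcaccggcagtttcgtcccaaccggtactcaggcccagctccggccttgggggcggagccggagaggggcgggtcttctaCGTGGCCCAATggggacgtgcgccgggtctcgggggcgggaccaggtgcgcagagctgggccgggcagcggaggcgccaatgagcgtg
Sdf2l1: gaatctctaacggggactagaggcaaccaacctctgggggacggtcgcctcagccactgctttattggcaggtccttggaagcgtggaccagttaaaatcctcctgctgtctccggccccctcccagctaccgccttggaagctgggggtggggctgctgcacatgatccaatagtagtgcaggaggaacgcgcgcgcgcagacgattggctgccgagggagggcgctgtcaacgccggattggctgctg

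The table held log2 signals, and a difference of arms is the cytokine minus the control value on that scale. Cytokine and control arrays were compared with limma at 0 h and as the mean difference over 3 windows, which were early (1, 2 and 4 h), intermediate (6, 8, 10 and 12 h) and late (24, 36, 48, 60 and 72 h). In a window, a gene is said to have fallen or risen where it was lower or higher in cytokine than in control cells. A late fall is thus a difference from control and not a decline with time. Where an arm is compared with itself, the words mean a change with time. Either use required a Benjamini-Hochberg adjusted p over all 16587 symbols under 0.05. Medians of single arrays ran from 6.54 to 6.62. Irf1 and Nos2, known cytokine targets, were higher in cytokine cells by 3.82 (SE 0.21) and 3.92 (SE 0.28) in the intermediate window, where limma gave adjusted p = 3.15e-11 for Irf1 and adjusted p = 2.2e-09 for Nos2. All 9 measured beta cell markers had means above the array median in both arms, and all 6 leukocyte markers and 9 of 10 endothelial, stromal, acinar and duct markers had means below it. The log2 of the summed signal of the 6 leukocyte markers was 6.95 to 7.28 on cytokine arrays and 7.003 to 7.34 on control arrays. That of the 10 endothelial, stromal, acinar and duct markers was 8.75 to 9.09 on cytokine arrays and 8.72 to 9.24 on control arrays. In RNA of a whole culture, fewer cells of a type and less RNA per cell cannot be told apart.

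At 0 h, 0 of 9 genes differed between the arms in limma (0% of all symbols), 0 had an unadjusted p under 0.05, and the differences ran from -0.17 for Derl3 to 0.15 for Dnajb9. In the first 12 h no gene passed in the main fit, but some differences at single times were as large as late ones. At 2 h, with 1 control array, the difference was 0.48 for Dnajb9 and 0.39 for Xbp1. That control array was of replicate 1 and held 6.09 for Dnajb9 and 10.24 for Xbp1. The cytokine arrays of replicates 1 and 2 held 6.43 and 6.73 for Dnajb9, and 10.41 and 10.85 for Xbp1. Replicate 1 alone thus gave smaller gaps. The difference of Derl3 was -0.50 at both 8 and 10 h, again with 1 control array each. In the early window 0 of 9 genes passed in limma at adjusted p under 0.05, against 1.49% of all symbols, and 0 of 9 had an unadjusted p under 0.05. The early differences ran from -0.01 for Derl3 to 0.22 for Dnajb9. In the intermediate window 0 of 9 passed, against 9.05% of all symbols, and 1 had an unadjusted p under 0.05. That gene was Derl3, at -0.39 (SE 0.15, limma adjusted p = 0.117). The replicate number as a block, or an additive model on the arrays of the window, took Derl3 past the threshold at -0.46 and -0.39.

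From 24 h on, 6 of the 9 genes were lower in cytokine cells and 0 were higher. They were the lumenal chaperones Hspa5, Hsp90b1 and Hyou1, the oxidoreductase Pdia4, the BiP partner Sdf2l1 and the degradation factor Derl3. The share of all symbols that fell in this window was 4.22%. For 5 of the 6 every one of the 10 cytokine arrays lay below every one of the 5 control arrays, which was so for 2.17% of all symbols. Dnajb9, Herpud1 and Xbp1 did not pass the test in any window. The median late difference of the 9 genes was -0.40, beside -0.04 over all symbols.

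**Figure D1:**
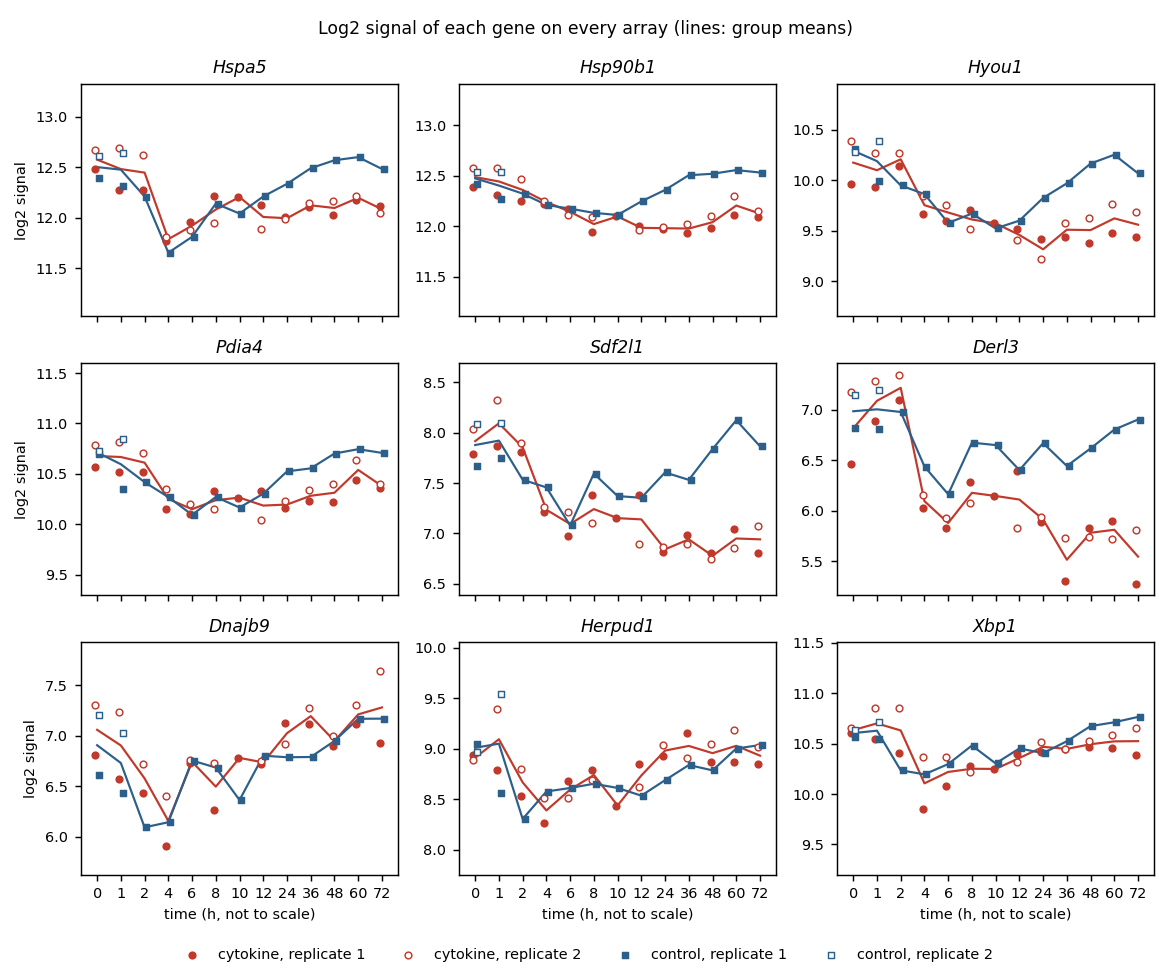
Log2 signal (y axis, own range per panel) of the 9 genes on every array against time (x axis, h, not to scale), with cytokine arrays as circles and control arrays as squares, open symbols for replicate 2 and lines through the group means. From 24 h the cytokine arrays of Hspa5, Hsp90b1, Hyou1, Sdf2l1 and Derl3 lie below all 5 control arrays, while those of Dnajb9, Herpud1 and Xbp1 overlap them.

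Hspa5 encodes BiP, the main HSP70 chaperone of the ER. Its 10 late cytokine arrays ran from 11.99 to 12.22 with a median of 12.11 log2 units, and the control arrays held 12.34, 12.49, 12.57, 12.60 and 12.48 at 24, 36, 48, 60 and 72 h. The arms did not overlap. The difference was -0.40 (SE 0.08), which is 1.32-fold lower, with limma adjusted p = 0.00329. Earlier, the gene moved over a wider range in both arms. The cytokine means were 12.45 at 2 h and 11.79 at 4 h, and the control arrays held 12.21 at 2 h and 11.65 at 4 h.

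Hsp90b1 encodes GRP94, the HSP90 of the ER. Late cytokine arrays ran from 11.93 to 12.30 with a median of 12.06, and control arrays held 12.36, 12.50, 12.52, 12.55 and 12.53. No cytokine array reached the lowest control array. The difference was -0.43 (SE 0.07), or 1.35-fold lower, with limma adjusted p = 0.000202.

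Hyou1 encodes GRP170, a large HSP70-like chaperone that also exchanges the nucleotide on BiP. Late cytokine arrays ran from 9.22 to 9.77 with a median of 9.46, and control arrays held 9.83, 9.97, 10.17, 10.25 and 10.07. Again the arms were apart, by a small margin between the highest cytokine array (60 h, replicate 2) and the control array at 24 h. The difference was -0.55 (SE 0.09), or 1.47-fold lower, with limma adjusted p = 0.000309.

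Pdia4 encodes ERp72, a protein disulfide isomerase. Late cytokine arrays ran from 10.17 to 10.64 with a median of 10.35, and control arrays held 10.53, 10.56, 10.70, 10.75 and 10.71. Of the 10 cytokine arrays 9 lay below every control array, and the other was replicate 2 at 60 h. The difference of -0.30 (SE 0.08, limma adjusted p = 0.026) was the closest to 0 of the 6. It lost its call, with adjusted p up to 0.0821, when the control array at 24, 36, 48 or 72 h or the replicate 1 cytokine array at 36, 48 or 60 h was left out. The other 5 falls kept their call in all 24 alternatives.

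Sdf2l1 encodes a partner of BiP and its J proteins that helps keep unfolded chains from aggregating. Late cytokine arrays ran from 6.75 to 7.07 with a median of 6.86, and control arrays held 7.60, 7.53, 7.84, 8.12 and 7.86. The 2 arms were separated by more than the whole range of the cytokine arrays. The difference was -0.90 (SE 0.10), or 1.87-fold lower, with limma adjusted p = 2.23e-06. By time it was -0.76 at 24 h, -0.59 at 36 h, -1.06 at 48 h, -1.17 at 60 h and -0.92 at 72 h.

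Derl3 encodes a derlin, a membrane protein of the channel through which misfolded proteins leave the ER. Late cytokine arrays ran from 5.28 to 5.94 with a median of 5.77, and control arrays held 6.67, 6.44, 6.62, 6.80 and 6.90. The arms did not overlap, and the lowest cytokine arrays were those of replicate 1 at 36 and 72 h. The difference was -0.97 (SE 0.13), or 1.97-fold lower, with limma adjusted p = 1.87e-05. It was -0.76 at 24 h and -1.36 at 72 h.

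**Figure D2:**
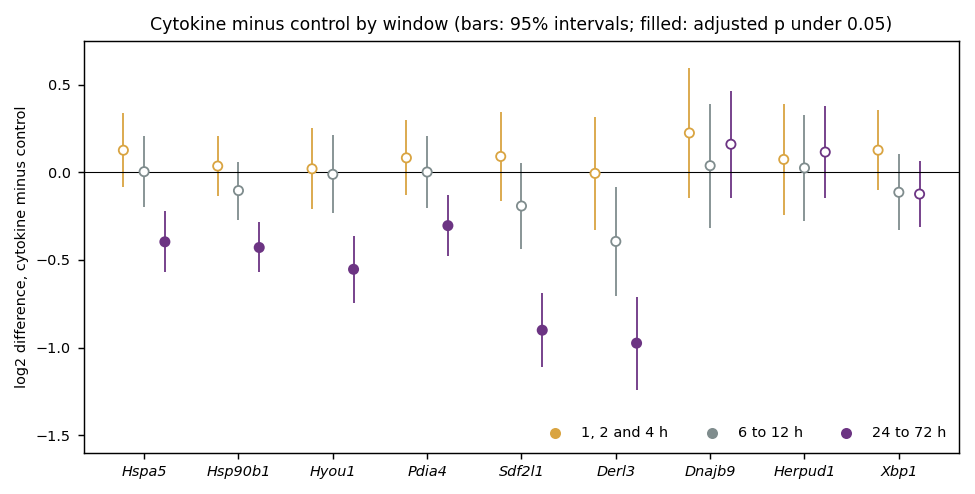
Cytokine minus control log2 difference (y axis) of each gene (x axis) in the early (1, 2 and 4 h), intermediate (6 to 12 h) and late (24 to 72 h) windows, with 95% intervals from limma and filled points where the adjusted p was under 0.05. The filled points are the 6 late falls, from -0.30 for Pdia4 to -0.97 for Derl3.

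The genes that did not pass held 3 other roles. Dnajb9 encodes ERdj4, a J protein of BiP that also restrains IRE1. Its late cytokine arrays ran from 6.90 to 7.64 with a median of 7.12, and control arrays held 6.79, 6.79, 6.95, 7.17 and 7.17. The ranges overlapped, and the difference was 0.16 (95% interval -0.14 to 0.46, limma adjusted p = 0.602). The 3 cytokine arrays above all controls were all of replicate 2, whereas the late control arrays were of replicate 1.

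Herpud1 encodes HERP, a membrane protein that gathers the degradation complex. Its late cytokine arrays ran from 8.85 to 9.19 with a median of 8.97, against control arrays at 8.69, 8.84, 8.79, 9.003 and 9.04. The ranges overlapped, and the difference was 0.12 (95% interval -0.15 to 0.38, limma adjusted p = 0.673).

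Xbp1 encodes the transcription factor whose message IRE1 splices. Late cytokine arrays ran from 10.39 to 10.66 with a median of 10.46, and control arrays held 10.40, 10.52, 10.67, 10.71 and 10.76. The ranges overlapped, and the difference was -0.12 (95% interval -0.31 to 0.06, limma adjusted p = 0.482). The probe set reads the gene as a whole, so the spliced and unspliced messages were not told apart. Promoter matches lay on both sides of the test: ERSE or ERSE-II was present in Hspa5, Hsp90b1, Hyou1 and Derl3, which fell, and in Herpud1 and Xbp1, which did not pass.

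Whether the difference itself changed with time was tested as the late minus an earlier difference. Against the early window, Sdf2l1 (-0.99, limma adjusted p = 0.00168), Derl3 (-0.97, adjusted p = 0.0145) and Hsp90b1 (-0.46, adjusted p = 0.0333) passed, 3 of 9 beside 0.663% of all symbols in that direction. Hspa5 at -0.52 (adjusted p = 0.0535) and Hyou1 at -0.57 (adjusted p = 0.0529) in limma did not, and with the replicate block both passed, at adjusted p = 0.0236 and adjusted p = 0.0102. The call of Derl3 was lost without the control array at 2 h (adjusted p = 0.112). That of Hsp90b1 was lost under quantile normalization, without the control array at 2, 4, 36 or 48 h or replicate 1 at 1 h, without the replicate 2 cytokine array at 1, 2 or 4 h, and without the replicate 1 cytokine array at 24, 36, 48 or 60 h. Hspa5 was called without replicate 2 of the control at 1 h or replicate 1 of the cytokine arrays at 1 or 2 h. Hyou1 was called without replicate 2 of the control at 1 h, the control array at 4 h, replicate 1 of the cytokine arrays at 1 h or their replicate 2 at 48, 60 or 72 h.

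Against the intermediate window, Sdf2l1 at -0.71 (limma adjusted p = 0.0141) and Hyou1 at -0.54 (adjusted p = 0.0452) passed, beside 1.43% of all symbols in that direction. The Sdf2l1 call was lost without the control array at 6 h (adjusted p = 0.0691). The Hyou1 call was lost in 21 of 33 alternatives, among them every left-out control array from 6 to 72 h. The cytokine arrays whose omission ended it were replicate 1 at 8, 10, 12, 36, 48, 60 and 72 h and replicate 2 at 6, 12, 24 and 36 h. The intermediate minus the early difference passed for 0 of 9 genes in limma (1.24% of all symbols), and 0 of 9 had an unadjusted p under 0.05.

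Each arm was also compared with itself over time. In control cells all 9 genes had higher means at 24 to 72 h than at 1 to 12 h, by 0.07 for Derl3 to 0.46 for Dnajb9. Of these 1 passed, Hspa5 at 0.42 (SE 0.09, limma adjusted p = 0.025), beside 0.392% of all symbols that rose. Its call was lost without the control array at 4, 6, 48, 60 or 72 h. In cytokine cells 3 of 9 fell over the same span, beside 11.3% of all symbols. These were Derl3 at -0.67 (limma adjusted p = 4.96e-05), Sdf2l1 at -0.51 (adjusted p = 7.56e-05) and Hyou1 at -0.27 (adjusted p = 0.00998).

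Dnajb9 and Herpud1 rose with time in cytokine cells, by 0.51 (limma adjusted p = 0.00275) and 0.32 (adjusted p = 0.0228), and 8.94% of all symbols rose. The same change in control cells was 0.46 for Dnajb9 and 0.25 for Herpud1, and neither passed there. With the replicate block Dnajb9 passed in control cells too, at 0.49 (limma adjusted p = 0.0128), as did Hsp90b1, Hyou1 and Pdia4. Herpud1 lost its call without replicate 1 at 36 h or replicate 2 at 48, 60 or 72 h of the cytokine arrays. Over this span Hspa5 changed by -0.03 in cytokine cells against 0.42 in control cells, Pdia4 by 0.00 against 0.34 and Derl3 by -0.67 against 0.07. The shares of the arms depend on the starting point, since the span of 1 to 12 h holds the low values around 4 to 10 h. At 0 h Hspa5 averaged 12.58 in cytokine cells and 12.50 in control cells, beside late means of 12.10 in cytokine cells and 12.50 in control cells. Pdia4 averaged 10.68 in cytokine cells and 10.71 in control cells at 0 h, beside late means of 10.34 in cytokine cells and 10.65 in control cells. Counted from 0 h, the control means of both genes were close to their start and the cytokine means were below it, a comparison that was not tested.

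**Figure D3:**
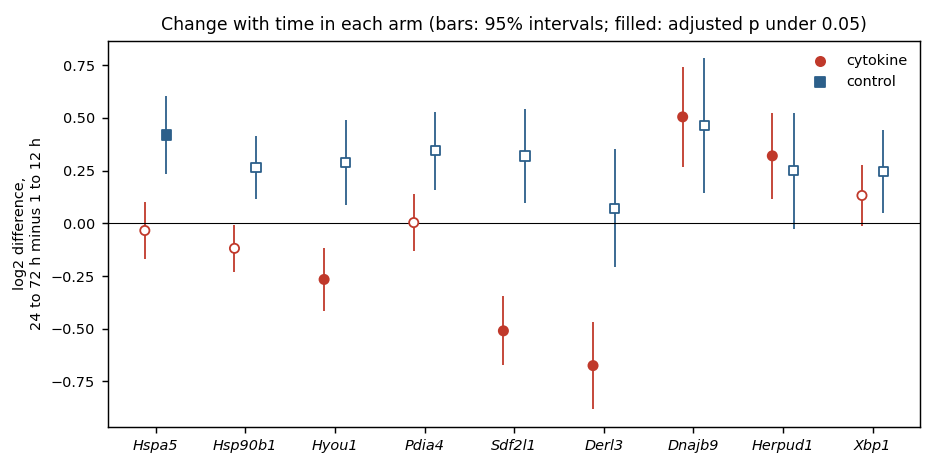
Log2 change with time (y axis, mean at 24 to 72 h minus mean at 1 to 12 h) of each gene (x axis) in cytokine cells (circles) and control cells (squares), with 95% intervals from limma and filled symbols where the adjusted p was under 0.05. Control values all lie above 0, and cytokine values run from -0.67 for Derl3 to 0.51 for Dnajb9.

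Every control array after 1 h is labelled replicate 1, whereas the late cytokine arrays are of both replicates. The replicate 2 minus replicate 1 difference was above 0 in all 9 genes, from 0.08 to 0.33. Its median was 0.14, beside -0.02 over all symbols. It passed in 3 of 9 genes, beside 8.57% of all symbols that were higher in replicate 2: Dnajb9 by 0.33 (limma adjusted p = 0.00371, higher in 13 of 14 pairs of arrays), Xbp1 by 0.16 (adjusted p = 0.0308, 11 of 14) and Hsp90b1 by 0.12 (adjusted p = 0.0393, 12 of 14). In an additive model fitted to the replicate 1 arrays of the window, the 6 late falls passed too, with differences of -0.41 for Hspa5, -0.48 for Hsp90b1, -0.63 for Hyou1, -0.36 for Pdia4, -0.90 for Sdf2l1 and -1.05 for Derl3. The late difference of Dnajb9 was 0.07 in that model and close to 0 with replicate as a block. The Hsp90b1 call was lost when either array of the control pair at 1 h or of the cytokine pairs at 0, 1, 2, 8, 36, 48 or 60 h was left out. That of Xbp1 was lost likewise for the cytokine pairs at 1, 2, 4, 6 or 72 h.

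Over the 13 group means of an arm, the Pearson r among the 6 genes that fell late, which were grouped by that fall, ran from 0.69 to 0.94 in cytokine cells and from 0.45 to 0.95 in control cells. Xbp1, which did not pass, had r of 0.81 with Hspa5 and 0.81 with Pdia4 in cytokine cells, and of 0.86 and 0.83 in control cells. With Hsp90b1, Sdf2l1, Derl3 and Hyou1 its r was 0.45 to 0.50 in cytokine cells and 0.44 to 0.81 in control cells. With Herpud1 and Dnajb9, which did not pass either, it was 0.76 and 0.61 in cytokine cells and 0.86 and 0.88 in control cells. Dnajb9 had r of -0.34 with Derl3, -0.24 with Sdf2l1, -0.21 with Hyou1, -0.08 with Hsp90b1, 0.27 with Pdia4 and 0.32 with Hspa5 in cytokine cells, against 0.10, 0.54, 0.43, 0.65, 0.63 and 0.70 in control cells. Dnajb9 and Herpud1 had r of 0.79 with each other in cytokine cells and 0.76 in control cells. These r values are descriptions over means that share arrays and their normalization.

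**Figure D4:**
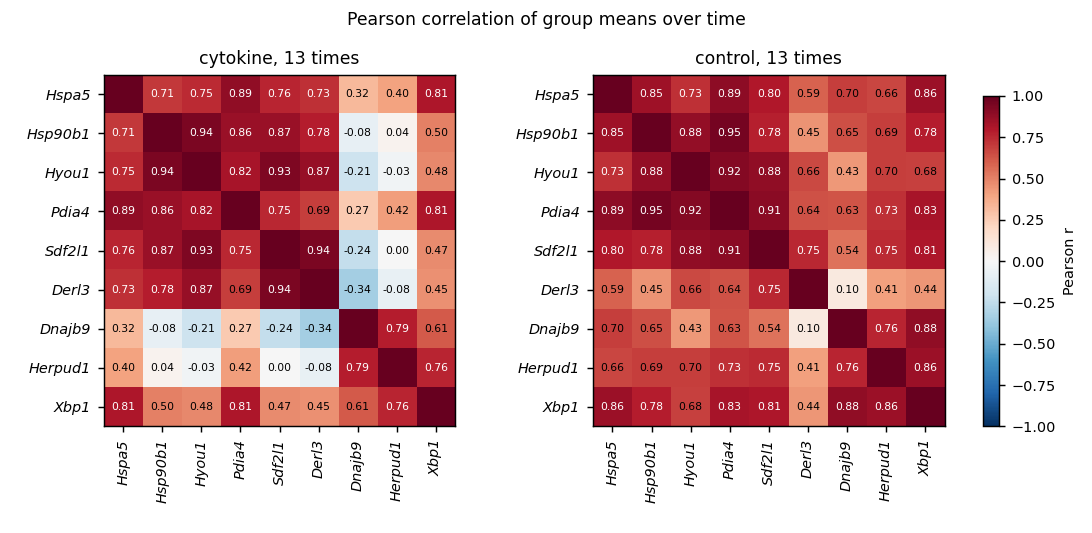
Pearson r between the genes over the 13 group means in cytokine cells (left) and control cells (right), coloured from -1 to 1. The block of the 6 genes that fell late is at 0.69 or above in cytokine cells, where Dnajb9 has r below 0 with 4 of them.

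Genes outside the 10 with the profile most like that of Hspa5 over the 26 group means were, by Pearson r, Txndc11 (0.93), Manf (0.89), Creld2 (0.87) and Stard4 (0.87), followed by Per1, Ddhd1, Unc13a and Mfsd2a (0.84 to 0.86). Against the mean of the standardised profiles of the 9 genes the order was Manf and Txndc11 (0.90 each), Dnajc3 (0.90), Cd59b (0.90), Stard4, Creld2, Phlpp1 and Stc1 (0.89 each). MANF is a secreted ER stress protein and CRELD2 an ER protein that stress induces. Of these genes Manf, Creld2, Stard4, Unc13a, Dnajc3, Cd59b and Stc1 fell in the late window in limma, whereas Txndc11, Per1, Ddhd1, Mfsd2a and Phlpp1 did not pass, with adjusted p from 0.0766 to 0.522. The profiles include the late groups, so these falls are no independent result.

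The rest of the ER pathway was divided. Among 33 other measured chaperones and folding enzymes, 7 fell and 1 rose in the late window, beside 4.22% of all symbols that fell, with a median of -0.05 beside -0.04 over all symbols. Creld2 at -0.79 (SE 0.08), Ero1b, an oxidase that feeds the disulfide isomerases, at -0.85 (SE 0.13), Manf at -0.46 (SE 0.10) and Dnajb11, the BiP partner ERdj3, at -0.44 (SE 0.07) were among those that fell, with limma adjusted p from 8.84e-07 to 0.00424. Outside the 9 genes, motifs were searched only for these named falls, so their matches cannot be set against genes that did not fall. Creld2 and Ero1b held ERSE on the opposite strand of their promoter windows, and Manf had no window in the promoter table. Dnajb11 held no full match of the 3 motifs, but its window ended inside a partial ERSE-II, and bases after the start were not searched. Uggt1, a sensor of glycoprotein folding, rose by 0.25 (SE 0.08, limma adjusted p = 0.0485) in the late window and by 0.61 (SE 0.09, limma adjusted p = 5.31e-05) in the intermediate window. Its late call was lost with the replicate block, in the additive model on replicate 1 arrays, without the control array at 24, 36, 48 or 60 h and without any 1 of the 10 late cytokine arrays. Calls in the list numbered 5 instead of 8 without the control array at 36, 48, 60 or 72 h or replicate 2 of the cytokine arrays at 24 h.

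Among 31 other degradation factors, 2 fell late and 0 rose, with a median of 0.01, beside 4.22% of all symbols that fell. They were Edem1 at -0.50 (SE 0.11, limma adjusted p = 0.00428) and Nploc4 at -0.24 (SE 0.06, adjusted p = 0.00839). With the replicate block the list held 5 calls. Edem1, whose product helps route misfolded glycoproteins to degradation, had the opposite sign before that. It was higher in cytokine cells in the early window, by 0.56 (SE 0.13, limma adjusted p = 0.0306), and in the intermediate window, by 0.45 (SE 0.13, adjusted p = 0.0253). At 4 h its cytokine arrays held 10.49 and 10.55, against 9.69 on the control array, and at 60 h they held 9.08 and 9.55, against 9.93 on the control array. The late minus early difference of Edem1 was -1.06 (SE 0.17, limma adjusted p = 0.00185) and passed in all 32 alternatives. Its intermediate call was lost in the additive model, and without the control array at 6, 8 or 10 h or replicate 1 of the cytokine arrays at 6, 8, 10 or 12 h.

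Of 20 measured stress sensors and transcription factors, 7 rose and 0 fell late, beside 4.51% of all symbols that rose, with a median of 0.10. The other 13 did not pass. Ddit3, the pro-apoptotic factor CHOP, rose by 0.89 (SE 0.11, limma adjusted p = 1.02e-05) and Trib3, a pseudokinase that CHOP and ATF4 are known to induce, by 1.08 (SE 0.15, adjusted p = 3.56e-05). The late gap of Ddit3 was 1.63 at 24 h, 1.73 at 36 h and 0.21 at both 60 and 72 h, whereas that of Sdf2l1 was -0.76 at 24 h and -1.17 at 60 h. Ppp1r15a, the eIF2α phosphatase subunit GADD34, rose by 0.45 (SE 0.10, limma adjusted p = 0.00352) and Creb3, an ER-anchored transcription factor, by 0.31 (SE 0.07, adjusted p = 0.00648). Late calls in this list numbered 3 without the control array at 24 h, 4 without that at 36 h and 4 in an additive model on replicate 1 arrays. Without the control array at 24 h Ppp1r15a was among those lost, and without that at 36 h Creb3 was. In the additive model on replicate 1 arrays the call of Ddit3 was lost (adjusted p = 0.0696).

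In the intermediate window, where none of the 9 genes passed, 4 of the 20 stress genes rose, beside 4.94% of all symbols: Ddit3 by 0.66 (SE 0.13), Trib3 by 0.60 (SE 0.17), Creb3 by 0.57 (SE 0.08) and Ppp1r15a by 0.52 (SE 0.11), with limma adjusted p from 5.05e-05 to 0.031. Of the degradation factors 3 rose: Rnf139, an E3 ligase of the ER membrane, Edem1 and Hm13, the signal peptide peptidase. The Ddit3 and Trib3 calls were lost in the additive model on replicate 1 arrays, and that of Hm13 also in the additive model on all arrays of the window and under quantile normalization. The Trib3 and Hm13 calls were lost without the control array at 6, 8 or 12 h or replicate 2 of the cytokine arrays at those times, and that of Rnf139 without the control array at 6 h. Early calls were few, with Edem1 the only one among degradation factors and Ppp1r15a the only one among stress genes. Both early calls were lost in an additive model, and without the control array at 2 or 4 h, replicate 1 of the control at 1 h or replicate 2 of the cytokine arrays at 2 h. That of Edem1 was also lost without replicate 2 of the cytokine arrays at 1 or 4 h or their replicate 1 at 2 h.

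The other steps of the secretory route were listed as well. Among 36 translocation and glycosylation genes 3 fell and 0 rose late, beside 4.22% of all symbols that fell, with a median of -0.10, and 13 had an unadjusted p under 0.05. They were Srprb, a subunit of the signal recognition particle receptor, Tram1, a translocon protein, and Magt1, an oxidoreductase of the oligosaccharyltransferase, at -0.33, -0.24 and -0.39. The count was 9 with the replicate block and 1 without the control array at 24 h. The Srprb call was lost without the control array at 72 h, that of Tram1 without the one at 24 or 36 h, and that of Magt1 without the one at 24, 48 or 60 h or replicate 1 of the cytokine arrays at 36 h. Beside 4.51% of all symbols that rose, 1 of 36 genes of ER to Golgi transport rose, the COPII coat subunit Sec31a by 0.31 (SE 0.07, limma adjusted p = 0.00368). Against the same share, 2 J protein genes rose among 17 cytosolic and mitochondrial heat shock proteins, Dnajb4 by 0.32 and Dnaja1 by 0.24, and the median was 0.01. Both calls were lost without the control array at 48 h, and that of Dnajb4 also in the additive model on replicate 1 arrays. The Dnaja1 call was lost without any other late control array, replicate 2 of the cytokine arrays at 24 h or replicate 1 at 36, 48, 60 or 72 h.

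**Figure D5:**
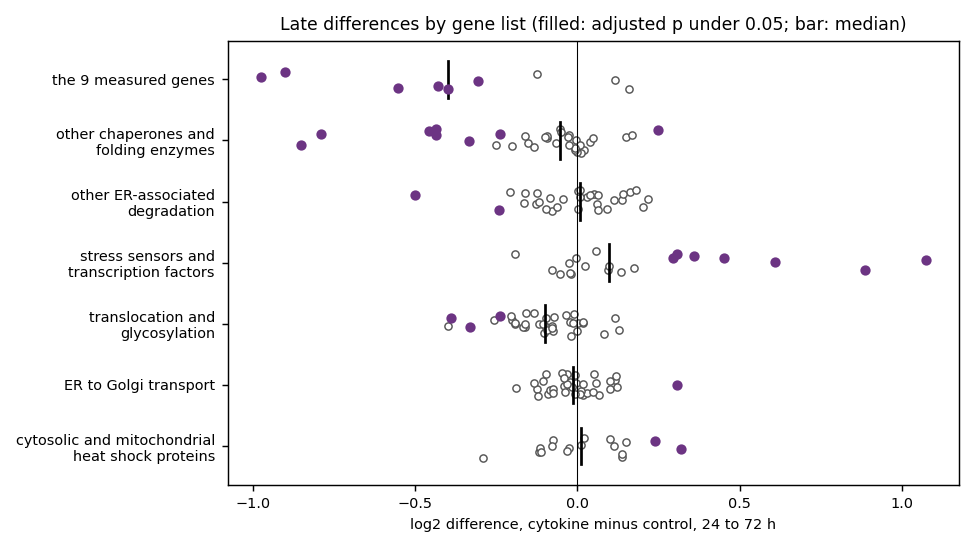
Late cytokine minus control log2 difference (x axis) of every measured gene of 7 lists (rows), filled where the limma adjusted p was under 0.05, with a bar at the median of each list. The 9 genes have a median of -0.40 and 6 filled points below 0, and the stress sensors and transcription factors have 7 filled points above 0.

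Secretory cargo and other beta cell genes fell too. Whether they differed in timing from the 9 ER genes was not tested. Of 9 measured beta cell markers 3 fell in the intermediate window, beside 9.05% of all symbols that passed in either direction and 0 of the 9 ER genes: Pcsk1 at -0.62, Slc30a8, a zinc transporter of insulin granules, at -0.55 and the transcription factor gene Nkx6-1 at -0.44. The first was lost without the control array at 12 h and the last without that at 6 or 12 h. In the late window 6 of 9 fell, beside 4.22% of all symbols, among them Ins2, an insulin gene, by 0.64 (SE 0.07, limma adjusted p = 6.75e-07) and Pcsk1, a proinsulin convertase, by 1.18 (SE 0.14, adjusted p = 3.85e-06). The log2 of their summed signal was 15.06 to 15.35 on late cytokine arrays and 15.45 to 15.72 on late control arrays. None of the 6 leukocyte markers and none of the 10 endothelial, stromal, acinar and duct markers passed in any window in limma, and in the late window 1 and 0 of them had an unadjusted p under 0.05. The part of these marker changes in the late falls of the ER genes was not tested.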

How the data were processed

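Values were the log2 signals deposited by the authors, 1 per probe set and array. The log2 scale was inferred from their range of 2.27 to 14.46. How the authors corrected, summarised and normalized the signals is not stated in the labels. The platform annotation gave 1 symbol for 16592 of the 19239 probe sets. Symbols were updated by gene number where the rat gene table of GRCr8 listed the old one as a synonym (3326 symbols), and the brightest probe set was kept for 5 symbols with several, leaving 16587. No dim genes were removed.

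limma 3.58.1 (R 4.3.3) was fitted with default lmFit and eBayes settings to all 40 arrays, leaving 14 residual degrees of freedom, with 1 coefficient for each of 26 groups of treatment and time. Groups of 1 array borrowed the spread of the groups with 2. Each time of a window had equal weight, and p-values were Benjamini-Hochberg adjusted over all symbols. The labels do not say that replicates were separate cultures, so the p-values rest on a spread between arrays that may be only technical, and few arrays per time limit the precision. The fit was tested on simulated data, which held no replicate effect and no change with time in control cells, so that test does not bear on either. Alternatives were replicate number as a block, quantile normalization, median centring, a filter on dim genes, the mean of probe sets, array weights, moderation with trend and robust options, an additive model, replicate 1 arrays only, and each array left out.

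The 10 genes and the lists of related genes were chosen with earlier results of these data known, and the alternatives for the lists were added after seeing the data. All measured members of the 10 are named. Of each list, up to 4 genes per window were named, those with the smallest p among called genes, together with the 8 genes of most similar profile. Some calls under this rule are not described above. In the early or intermediate window Dpagt1, Sec24a, Uso1 and Dnaja1 rose and Gfpt1, Ergic1 and Fkbp7 fell in limma. All of these but Gfpt1 lost a call in some alternatives. Motif matches came from the RefSeq promoter table.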

Additional observations from a re-analysis of the deposited data

Results flagged for a closer look

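The cytokine minus control difference changed between time windows, by limma's test of the difference itself, in 16 cases among the 9 genes and the named genes of the related lists. The changes of the 9 genes were -0.99 (SE 0.16) for Sdf2l1, -0.97 (SE 0.20) for Derl3 and -0.46 (SE 0.11) for Hsp90b1, late minus early, and -0.71 (SE 0.15) for Sdf2l1 and -0.54 (SE 0.14) for Hyou1, late minus intermediate. Of the related genes, the late minus early change was -0.87 for Creld2, -0.57 for Dnajb11, -1.06 for Edem1, -0.83 for Ero1b, -0.70 for Ins2, -1.11 for Pcsk1 and 1.04 for Trib3. The late minus intermediate change was -0.80 for Creld2, -0.96 for Edem1, -0.56 for Ins2 and 0.55 for Dnajb4. Apart from Ins2, the related genes were named because they passed in a window, mostly the late one. The changes reuse those window differences, so for these genes they are no independent result. Over all symbols, 0.663% were called lower late minus early and 1.43% late minus intermediate.

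Edem1 had opposite signs in the 2 periods. Its cytokine minus control difference was 0.68 at 2 h and 0.83 at 4 h, 0.04 at 12 h, and between -0.61 and -0.29 from 24 to 72 h.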

How the results depend on the processing

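Of 2259 values of the 9 genes under 49 alternative settings, 2021 kept their direction and their side of the threshold, 78 lost a call, 40 gained one, and 120 changed sign where neither value was called; 0 reversed with a call. The 6 late falls numbered 5 to 6 with 1 array left out, and 6 with replicate number as a block. The genes called late minus early numbered 3, but 5 with the replicate block, with trend and robust moderation or without the genes of lowest mean signal, and 1 to 5 with 1 array left out. Late minus intermediate they numbered 2, but 1 with arrays centred on their medians and 0 to 2 with 1 array left out; the replicate block gave 3. The intermediate window had 0, but 1 in an additive model and 1 with the replicate block. The control change with time had 1 call, but 2 with array weights or quantile normalization, 3 without the genes of lowest mean signal or with trend and robust moderation, 5 with the replicate block and 0 to 2 with 1 array left out. Replicate 2 minus replicate 1 had 3, and 1 to 5 with 1 array left out. Over all genes the early window had 247 calls, 318 with the replicate block, 45 in the additive model and 20 in that model on replicate 1 arrays only. Arrays of the same replicate number shared part of their deviations across groups, which the main fit did not model. These deviations correlated at -0.17 to 0.43 over 91 pairs of groups (median 0.21, 68 over 0.1). All 14 groups with both replicates followed their own number. All control times after 1 h, the 5 late ones included, rest on 1 array, which limits every window. The causes of these changes were not tested.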
